A study of Homo sapiens with 5 samples.

Results

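The genes described here are 33 genes of cholesterol and fatty acid synthesis, listed by name: 7 enzymes from acetyl-CoA to farnesyl diphosphate, 11 from squalene to cholesterol, 5 genes that control the SREBP transcription factors, 1 sterol carrier and 9 genes of fatty acid synthesis. Of these, 30 had at least 1 probe set of their own among the 19775 genes of the array, and 29 lay above background on at least 1 array. The RNA of stably transfected populations of MIAPaCa2, 1 per array, was read on 5 Affymetrix arrays. MIAPaCa2 is an established line of pancreatic ductal adenocarcinoma, labelled grade 3 and described by the study as very poorly differentiated. MP2-α2/CI cells carried the α2 integrin and were kept on collagenI at 25 μg/mL. MP2-α2/TC cells carried α2 from the same transfection and were kept in standard culture. MP2-α2Δ cells carried α2 lacking the cytoplasmic domain, likewise on collagenI at 25 μg/mL. MP2-α9α2 cells carried a chimera of the α9 ectodomain and transmembrane domain with the α2 cytoplasmic domain, and were kept on tenascin FNIII at 10 μg/mL. MP2-mock cells carried empty vector and were kept under drug selection, with no coating named in the labels. All populations were under drug selection and none was a single clone. α2 was driven by the cytomegalovirus promoter, and the selection drug was zeocin for α2 and α2Δ and G418 for α9α2, so that construct, substrate and drug cannot be told apart between MP2-α2Δ and MP2-α9α2. The populations are named below without the prefix MP2-.

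Cells make cholesterol from acetyl-CoA through mevalonate, farnesyl diphosphate, squalene and lanosterol, and make fatty acids from acetyl-CoA through malonyl-CoA. SREBP-1 and SREBP-2, encoded by SREBF1 and SREBF2, are held in the endoplasmic reticulum by SCAP and the INSIG proteins when sterols are plentiful. When sterols fall, SCAP escorts them to the Golgi, where proteases release the part that enters the nucleus and switches on most genes of both pathways. SREBP-1 is known mainly for fatty acid synthesis and SREBP-2 for cholesterol synthesis, and both pathways are often active in tumour cells. In bulk RNA, fewer cells of a kind and less RNA per cell cannot be told apart.

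The levels are normalized values on the log2 scale, 1 per probe set and array, so that a difference of 1 is 2-fold. α2/CI, α2/TC and mock shared a minimum of 2.24 and were taken as normalized together, as were α2Δ and α9α2 with a minimum of 2.21. Values of all 5 arrays are given as deposited, and arrays are ranked only within each of these sets unless centring is named. Background on each array was the 95th percentile over the 107 probe sets of odorant receptors, at 2.21 to 2.27, and lower values were raised to it. Each gene was read from the probe set with the highest mean, and differences were counted over genes above background on either array of a pair. With 1 array per population differences go without a replicate check or a test, so counts of members are set beside the same counts over all genes. Of 21026 probe sets with a level over 5, 25.4% read identically on all 3 arrays of the first set and 11.3% on both arrays of the second, and 3 members (PMVK, ACACA and ACSS2) and 1 member (MVK) did so. The keratin genes KRT8, KRT18 and KRT19 and the mesenchymal marker VIM lay above background on all 5 arrays. Of these, KRT8, KRT18 and VIM were read by probe sets of the kind that can match several transcripts. The epithelial marker EPCAM, the acinar marker CPA1, the endocrine markers INS and GCG, the fibroblast marker DCN and the leukocyte marker PTPRC lay at or below it on all 5, and CDH1 passed it on 1. COL1A1 (fibroblast), read by a probe set that can match several transcripts, lay between 7.18 and 8.11, PECAM1 (endothelial) near background between 2.21 and 2.49, and the liver genes ALB and APOA1 at 2.25 or less. ITGA2 probe sets, which per the study's text do not read the transgene, passed background only in α2Δ (7.28 by the stronger one), so the arrays do not check the constructs. The study's text states that its array analysis found α2 in none of the populations, and the α2Δ reading departs from this. The source of that signal was not tested.

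The promoters of 6 members that the comparisons below turn on are printed first, as the 250 bases before the transcript start from the RefSeq table of assembly GRCh38.p14, 5′ to 3′ on the gene's strand. SCD, INSIG1, ELOVL6 and SREBF2 are lower in α2Δ than in α9α2 cells, and EBP and FDPS are higher. They lie at chr10:100346983-100347232 on the plus strand (SCD), chr7:155297628-155297877 on the plus strand (INSIG1), chr4:110198616-110198865 on the minus strand (ELOVL6), chr22:41832855-41833104 on the plus strand (SREBF2), chrX:48521558-48521807 on the plus strand (EBP) and chr1:155308616-155308865 on the plus strand (FDPS). Capitals mark CCAAT on either strand, the box read by NF-Y, a factor that acts beside SREBPs at many promoters, except in SREBF2, where they mark the sterol regulatory element TCACNCCAC.
SCD: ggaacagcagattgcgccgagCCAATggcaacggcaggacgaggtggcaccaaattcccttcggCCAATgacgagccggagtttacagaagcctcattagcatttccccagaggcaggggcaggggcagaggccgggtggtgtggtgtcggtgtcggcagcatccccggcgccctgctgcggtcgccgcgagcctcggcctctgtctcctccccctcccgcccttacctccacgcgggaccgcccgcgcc
INSIG1: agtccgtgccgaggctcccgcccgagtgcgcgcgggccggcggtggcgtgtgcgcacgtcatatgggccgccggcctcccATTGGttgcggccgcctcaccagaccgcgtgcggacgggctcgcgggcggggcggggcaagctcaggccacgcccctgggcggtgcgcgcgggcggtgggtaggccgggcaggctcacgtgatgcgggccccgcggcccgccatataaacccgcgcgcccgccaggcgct
ELOVL6: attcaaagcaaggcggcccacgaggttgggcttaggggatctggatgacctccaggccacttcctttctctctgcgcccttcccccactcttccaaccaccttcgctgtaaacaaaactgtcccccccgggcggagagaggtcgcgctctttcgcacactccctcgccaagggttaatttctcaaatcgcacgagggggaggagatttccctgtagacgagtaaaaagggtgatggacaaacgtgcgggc
SREBF2: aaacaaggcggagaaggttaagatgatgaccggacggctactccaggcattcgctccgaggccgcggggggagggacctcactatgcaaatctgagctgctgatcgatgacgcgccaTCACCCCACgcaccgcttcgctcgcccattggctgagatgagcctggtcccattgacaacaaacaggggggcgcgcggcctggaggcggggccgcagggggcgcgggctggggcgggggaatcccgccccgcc
EBP: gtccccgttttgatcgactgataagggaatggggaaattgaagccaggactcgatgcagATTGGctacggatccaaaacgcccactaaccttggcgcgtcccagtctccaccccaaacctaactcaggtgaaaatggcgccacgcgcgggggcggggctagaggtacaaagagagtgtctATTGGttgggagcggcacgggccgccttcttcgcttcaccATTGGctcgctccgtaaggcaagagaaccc
FDPS: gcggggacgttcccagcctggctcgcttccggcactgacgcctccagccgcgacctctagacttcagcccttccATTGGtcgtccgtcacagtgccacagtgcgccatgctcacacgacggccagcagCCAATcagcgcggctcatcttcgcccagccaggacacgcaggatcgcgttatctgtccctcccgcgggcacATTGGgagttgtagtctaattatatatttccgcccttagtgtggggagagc

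CCAAT stands 2 times in the SCD stretch, 1 time in that of INSIG1 and 3 times each in those of EBP and FDPS, and it is not in the ELOVL6 stretch. The match in INSIG1 spans positions -170 to -166 from the start, and the sterol element of SREBF2 spans -133 to -125. Over the full windows of the table, 250 bases before to 50 after the start, 29 of the 33 members had an entry (not FASN, FDFT1, SQLE or ACAT2). CCAAT was found in 21 of these 29 (72.4%), against 39.7% of 27305 genes. It was found for 8 of 9 members from squalene to cholesterol, 5 of 6 of the mevalonate pathway, 5 of 8 of fatty acid synthesis and 2 of 5 of SREBP control, and in STARD4. TCACNCCAC was found in 1 member (3.4%), SREBF2, against 1.4% of genes, and the E-box CACGTG in 4 (13.8%), INSIG1, LSS, SC5D and SCAP, against 8.8%. Both strands were searched and none of these motifs contains another. The members higher and the members lower in α2Δ cells both include promoters with CCAAT.

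Among arrays normalized together, the largest differences in these genes lay between the cells with the truncated α2 and the cells with the α9α2 chimera. The 5 genes of SREBP control and the 8 measured genes of fatty acid synthesis were all lower in α2Δ than in α9α2 cells by the chosen probe sets, whereas the enzymes of cholesterol synthesis went both ways. Over all roles 20 of 29 members were lower by any amount (69.0%), against 39.3% of genes. That share of genes is held down by ties, since 5078 genes were lower, 4834 higher and 3012 identical, with 1 member identical. After quantile normalization, which left 10 genes identical, 72.4% of members and 63.2% of genes were lower. There 8181 genes were lower and 4745 higher with a median of -0.03, so genes tied before mostly counted as lower by small amounts. Neither share of all genes by any amount is therefore a clean comparator. Neighbouring genes of lipid metabolism that are not members, given below, were lower in 66.0% as deposited and in 70.0% after quantile normalization. The elongase gene ELOVL6 was furthest apart, 6.503-fold lower. At least 2-fold higher were 2 of 29 members, EBP and FDPS (6.9%), with 10.1% of 12924 genes, and 1 member, ELOVL6, was at least 2-fold lower (3.4%), with 4.97% of genes, so that neither share exceeded that of all genes. At 1.5-fold, 5 members were higher (17.2%), against 18.3% of genes, and 8 were lower (27.6%), against 14.2%. At 1.1-fold, 8 were higher (27.6%), against 31.0% of genes, and 17 were lower (58.6%), against 32.4%. The median difference over members was -0.29 (-0.13 with the mean of all probe sets of a gene), and over all genes 0.00. Among the 10066 genes with a level over 5 on any array, a choice made after the values were seen, 17.6% were at least 1.5-fold lower and 39.8% at least 1.1-fold lower, so that the gap to the members was smaller there.

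**Figure D1:**
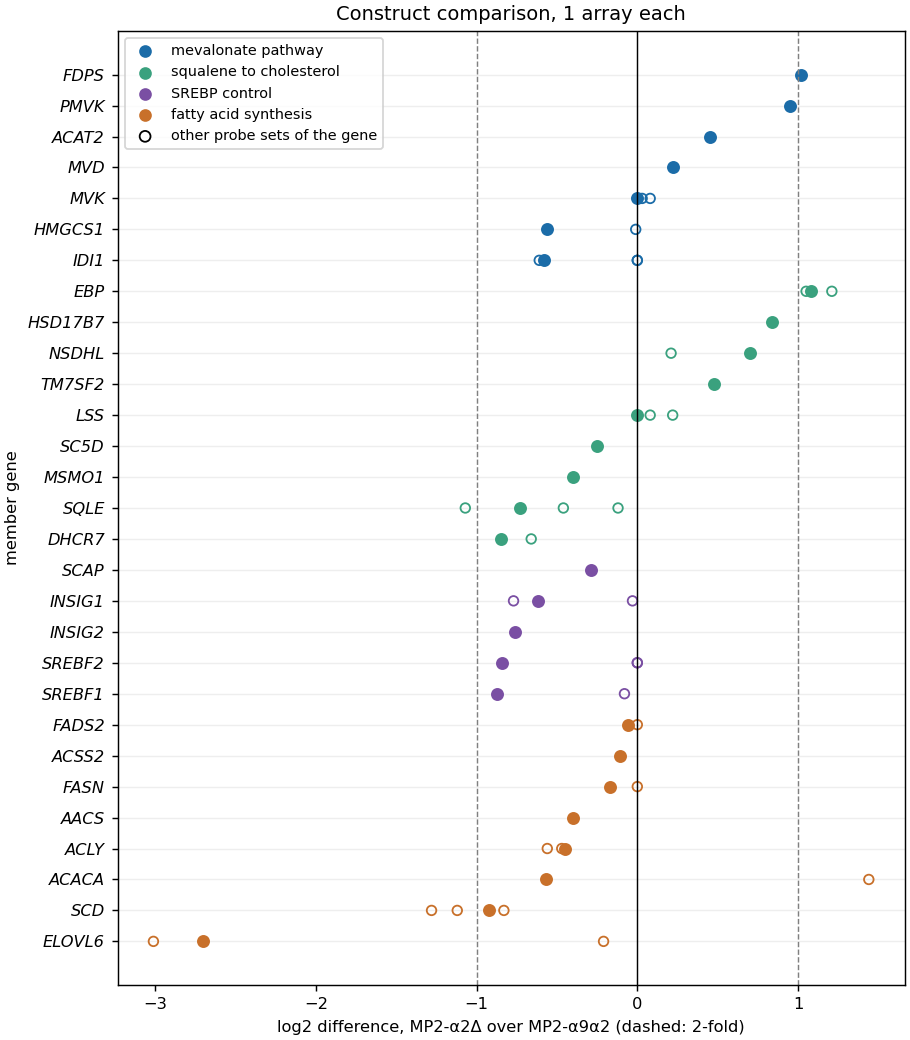
Log2 difference between α2Δ and α9α2 cells (x axis) for the 29 members above background, grouped by role (y axis, colours), with the chosen probe set filled and other probe sets of the gene above background on either array open, and dashed lines at 2-fold. All filled points of SREBP control and fatty acid synthesis lie left of 0, from -0.06 (FADS2) to -2.70 (ELOVL6), and those of the mevalonate pathway spread from -0.58 to 1.02.

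SREBP control had the lowest median of the roles, -0.76 (range -0.87 to -0.29, 5 genes, 4 of them at least 1.5-fold lower). SREBF1, which encodes SREBP-1, read 9.62 in α2/CI, 9.47 in α2/TC, 9.58 in α2Δ, 10.45 in α9α2 and 9.64 in mock cells. Within the second set α9α2 was higher, and the difference of α2Δ from it was -0.87. A second, weak SREBF1 probe set read 4.27 in α2Δ and 4.36 in α9α2, a difference of -0.08.

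SREBF2, which encodes SREBP-2, read 7.46 in α2/CI, 7.46 in α2/TC, 7.40 in α2Δ, 8.24 in α9α2 and 7.84 in mock cells. Again α9α2 was the higher of the second set, with a difference of -0.84 for α2Δ, but the other 2 SREBF2 probe sets read the same on both arrays (6.67 and 3.92). SCAP, the escort of the SREBPs, was nearest to level within the group at -0.29 (9.04 in α2Δ, 9.33 in α9α2).

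INSIG1, an SREBP target that retains SCAP in the endoplasmic reticulum, read 9.55 in α2/CI, 9.29 in α2/TC, 11.17 in α2Δ, 11.79 in α9α2 and 9.60 in mock cells. In the first set the 3 arrays lay close together, and in the second the difference of α2Δ from α9α2 was -0.62. The other INSIG1 probe sets differed by -0.77 and -0.03. INSIG2, its relative with the same role, read 7.32 in α2/CI, 7.32 in α2/TC, 9.39 in α2Δ, 10.14 in α9α2 and 7.32 in mock cells, with the first set level and a difference of -0.76 in the second by its 1 probe set.

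**Figure D2:**
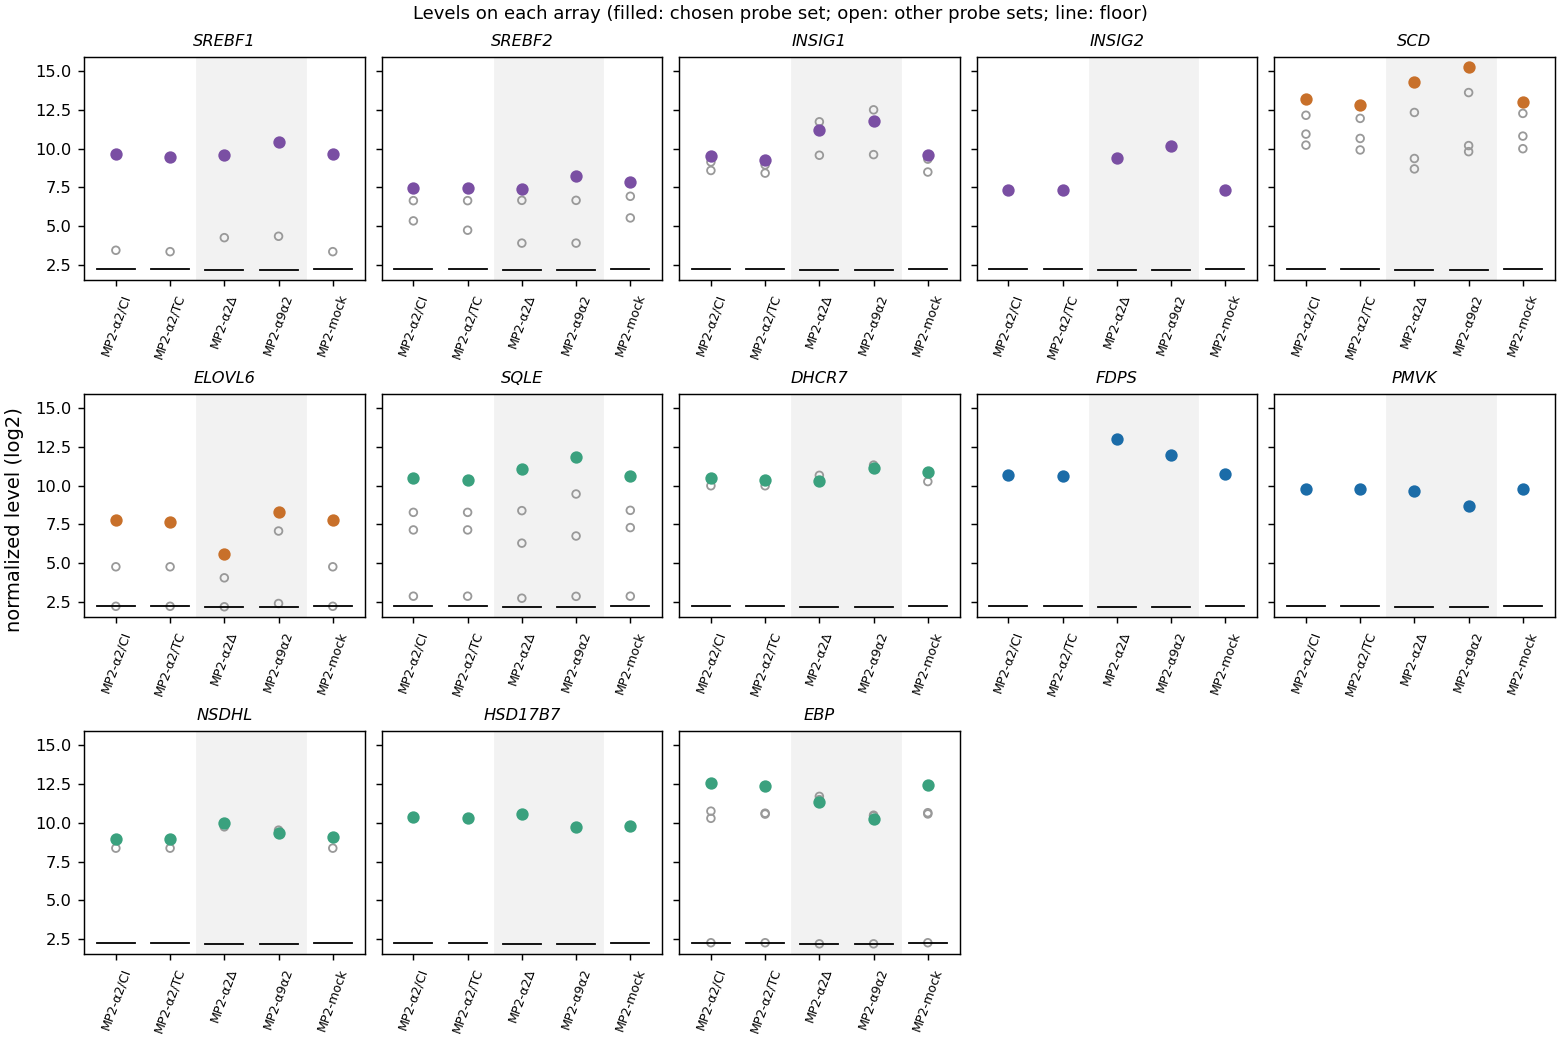
Normalized level (y axis, log2) on each of the 5 arrays (x axis) for the 13 members at least 1.5-fold apart between α2Δ and α9α2 cells, with the chosen probe set filled, other probe sets open, the background level as a line and the separately normalized pair shaded. α9α2 lies above α2Δ for SREBF1, SREBF2, INSIG1, INSIG2, SCD, ELOVL6, SQLE and DHCR7 and below it for FDPS, PMVK, NSDHL, HSD17B7 and EBP.

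The 8 measured genes of fatty acid synthesis had a median difference of -0.42 between α2Δ and α9α2 cells, and 6 of them were at least 1.1-fold lower. ELOVL6, which elongates palmitate toward stearate, read 7.79 in α2/CI, 7.64 in α2/TC, 5.60 in α2Δ, 8.30 in α9α2 and 7.79 in mock cells. α2Δ was far below α9α2, and the difference was -2.70. A second ELOVL6 probe set differed by -3.01 (4.07 in α2Δ, 7.08 in α9α2), and the last lay near background on every array.

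SCD, the desaturase that makes oleate from stearate, read 13.19 in α2/CI, 12.83 in α2/TC, 14.31 in α2Δ, 15.23 in α9α2 and 13.00 in mock cells. The difference of α2Δ from α9α2 was -0.92, and all 4 SCD probe sets went the same way (-1.28 to -0.83). ACLY, which supplies cytosolic acetyl-CoA from citrate, was lower by all 3 of its probe sets (-0.56 to -0.45).

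AACS, which activates acetoacetate, differed by -0.40, FASN, the fatty acid synthase, by -0.17, ACSS2, which activates acetate, by -0.11 and FADS2, a desaturase of polyunsaturated fatty acids, by -0.06. For ACACA, the carboxylase that makes malonyl-CoA, the probe sets disagreed, at -0.57 for the stronger (11.00 in α2Δ, 11.57 in α9α2) and 1.44 for the weaker (6.34 in α2Δ, 4.90 in α9α2). With the mean of all probe sets of a gene, 12 of the 13 genes of SREBP control and fatty acid synthesis stayed below 0. Without probe sets that can match several transcripts, where fewer of these genes were measured, 7 were below 0. These roles were put together after the values were seen, and the share of all genes under these settings was not counted.

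Of the 7 mevalonate pathway genes, 4 stood at least 1.1-fold above and 2 as far below their α9α2 level in α2Δ cells, with a median of 0.22. FDPS, which makes farnesyl diphosphate, read 10.66 in α2/CI, 10.63 in α2/TC, 13.01 in α2Δ, 11.99 in α9α2 and 10.77 in mock cells. It was higher in α2Δ than in α9α2, with a difference of 1.02 by its 1 probe set.

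PMVK, the phosphomevalonate kinase, read 9.77 in α2/CI, 9.77 in α2/TC, 9.65 in α2Δ, 8.70 in α9α2 and 9.77 in mock cells. Here α9α2 was the lower of its set, and the difference was 0.95. ACAT2, which condenses acetyl-CoA, differed by 0.45 and MVD, the mevalonate diphosphate decarboxylase, by 0.22, whereas IDI1, the isopentenyl diphosphate isomerase, and HMGCS1, the HMG-CoA synthase, differed by -0.58 and -0.56. MVK, the mevalonate kinase, read 7.40 on both arrays, and a second HMGCS1 probe set differed by only -0.01.

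From squalene to cholesterol 9 genes were measured, with 4 at least 1.1-fold higher and 4 lower. EBP, the sterol isomerase, read 12.57 in α2/CI, 12.37 in α2/TC, 11.30 in α2Δ, 10.22 in α9α2 and 12.39 in mock cells. The difference between the constructs was 1.08, and 2 further EBP probe sets gave 1.21 and 1.05, while the last lay near background.

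HSD17B7, the reductase of sterol 3-ketones, read 10.37 in α2/CI, 10.33 in α2/TC, 10.55 in α2Δ, 9.71 in α9α2 and 9.79 in mock cells. Mock was the low array of the first set and α9α2 of the second, and α2Δ lay 0.84 above α9α2. NSDHL, which removes a carbon at the sterol C4 position, read 8.94 in α2/CI, 8.94 in α2/TC, 10.01 in α2Δ, 9.31 in α9α2 and 9.09 in mock cells, and its 2 probe sets gave 0.70 and 0.21.

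SQLE, the squalene epoxidase and a rate-limiting step, read 10.50 in α2/CI, 10.35 in α2/TC, 11.09 in α2Δ, 11.82 in α9α2 and 10.61 in mock cells. The difference was -0.73, and all 4 SQLE probe sets were lower in α2Δ (-1.07 to -0.12). DHCR7, which makes cholesterol from 7-dehydrocholesterol, read 10.48 in α2/CI, 10.38 in α2/TC, 10.31 in α2Δ, 11.16 in α9α2 and 10.86 in mock cells, with differences of -0.85 and -0.66 by its 2 probe sets.

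The other genes of this stretch were nearer together. TM7SF2, the sterol C14 reductase, differed by 0.48, MSMO1, the C4 methyl oxidase, by -0.40 and SC5D, the C5 desaturase, by -0.25. LSS, the lanosterol synthase, read 11.60 on both arrays and was counted as lower by a 1.001-fold difference. Its weaker probe sets gave 0.22 and 0.08. Over all roles, 14 members had at least 2 probe sets that differed between α2Δ and α9α2. For 12 of these the differing probe sets went 1 way, the exceptions being LSS and ACACA. Probe sets identical on both arrays were left out, among them weaker ones of SREBF2 and IDI1. Differences as small as -0.01 (HMGCS1) were counted.

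Neighbouring genes of lipid metabolism, taken from lists of 59 genes that are not members, gave 50 genes above background in the same comparison. Of these, 3 passed 2-fold upward in α2Δ relative to α9α2 cells, against 10.1% of all genes, and 4 downward, against 4.97%. By any amount 33 were lower (66.0%) and 14 higher, at 1.5-fold 13 and 6, and at 1.1-fold 27 and 10. Their median was -0.19, so the lean to the lower side was not particular to the members. In the list of LXR and cholesterol export, all 4 measured genes passed 2-fold. ABCA1, the cholesterol exporter, read 3.45 in α2Δ and 5.86 in α9α2 cells (-2.41), and ABCG1, a second exporter, read 2.55 in α2Δ and 4.40 in α9α2 cells (-1.85). Both were weak signals and lower in α2Δ.

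MYLIP, a ligase that degrades lipoprotein receptors, differed by 1.29 (6.77 in α2Δ, 5.48 in α9α2), and NR1H3, which encodes LXRα, by 1.28 (6.12 in α2Δ, 4.83 in α9α2). ABCA1, ABCG1 and MYLIP are all known LXR targets, and MYLIP went the opposite way from the exporters. Elsewhere, NPC1, which moves cholesterol out of lysosomes, differed by -1.08, SCD5, a second stearoyl-CoA desaturase, by -1.03 and TECR, the reductase of fatty acid elongation, by 1.35.

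No gene passed 2-fold among 5 genes of the isoprenoid branch, 7 of SREBP processing and sterol-regulated degradation, 8 other lipogenic genes and 7 of fatty acid oxidation. At 1.1-fold, 8 of the 10 measured genes of fatty acid activation and elongation were lower and 1 was higher. Of the cholesterol transport and storage genes, 6 of 9 were lower and 1 was higher at this size. Over all genes, 32.4% were lower and 31.0% higher.

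Between the cells with full-length α2 and mock cells, the differences in these genes were small. No member was 1.5-fold apart from mock on either α2 array, against 1.87% of 12608 genes in α2/CI and 1.41% of 12682 genes in α2/TC (0.65% and 0.67% at 2-fold). Below that size, the members in α2/TC cells were mostly on the lower side. In α2/TC, 15 of 29 members were at least 1.1-fold lower than in mock (51.7%), against 8.6% of genes, and 1 was higher (3.4%), against 8.94%. In α2/CI, 8 were at least 1.1-fold lower (27.6%), against 12.5% of genes, and 3 were higher (10.3%), against 14.3%. Median differences were -0.15 in α2/TC and -0.03 in α2/CI, against 0.00 over all genes in both. Both comparisons used the same mock array, the 1.1-fold size was chosen after the values were seen, and the differences are small for single arrays. Among genes with a level over 5, 1019 of 10036 (10.2%) were at least 1.1-fold lower in α2/TC and 1502 of 10038 in α2/CI. The α2/TC count was 8 when all probe sets of a gene were averaged, and 7 without probe sets that can match several transcripts, over the 17 members that then remained above background. The α2/CI count was 4 without them.

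**Figure D3:**
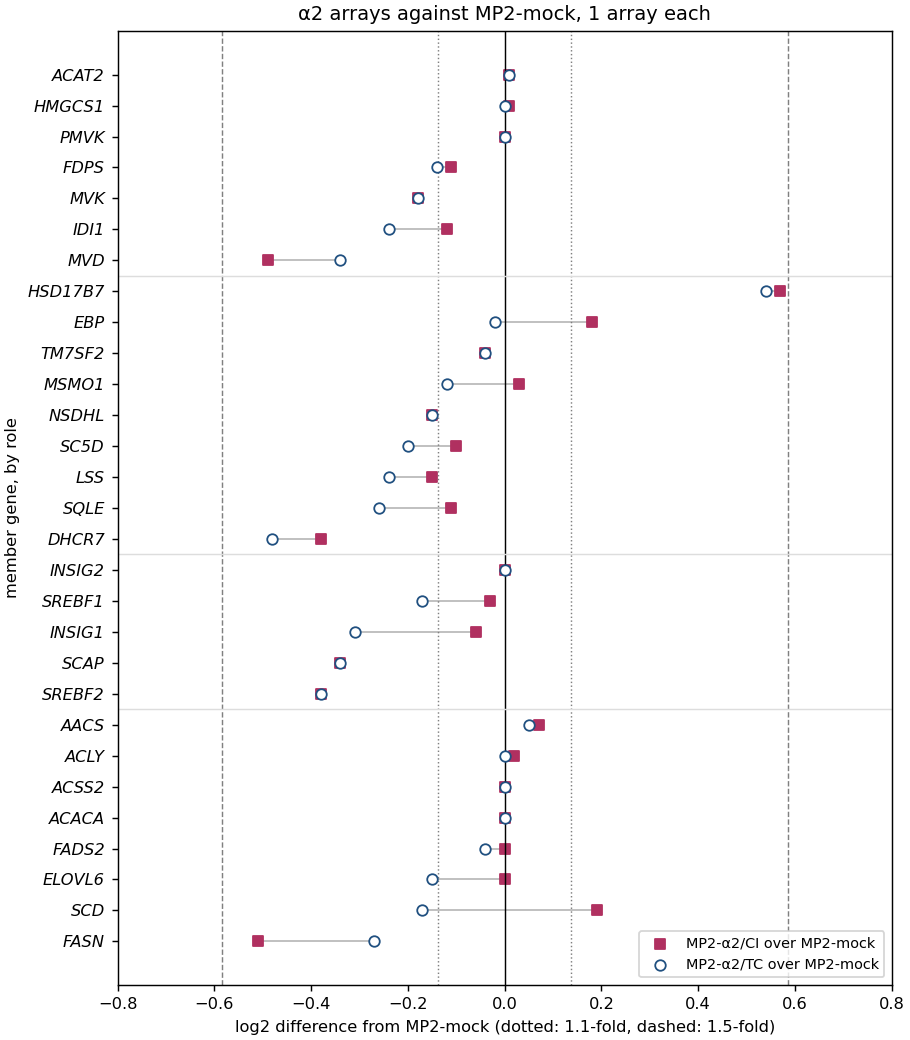
Log2 difference from mock (x axis) in α2/CI (squares) and α2/TC cells (circles) for the 29 members above background, by role (y axis), with dotted lines at 1.1-fold and dashed lines at 1.5-fold. All points lie within the 1.5-fold lines, 15 circles and 8 squares lie at or beyond the lower 1.1-fold line, and HSD17B7 stands alone near the upper 1.5-fold line.

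By role, 4 of 5 SREBP control genes were at least 1.1-fold lower in α2/TC than in mock cells, 5 of 9 from squalene to cholesterol, 3 of 7 of the mevalonate pathway and 3 of 8 of fatty acid synthesis. Of all genes, 8.6% were. The 8 genes lower on both α2 arrays were MVK, MVD, LSS, NSDHL, DHCR7, SREBF2, SCAP and FASN. Both comparisons share the mock array, and the share of all genes lower on both, or in α2/TC alone, was not counted. The 7 lower in α2/TC alone at this size were IDI1, SQLE, SC5D, INSIG1, SREBF1, SCD and ELOVL6. Both groups hold known SREBP targets, as SREBPs switch on most genes of cholesterol and fatty acid synthesis. In α2/CI, IDI1 (-0.12), SQLE (-0.11), SC5D (-0.10), INSIG1 (-0.06) and SREBF1 (-0.03) were below mock by less than this size. ELOVL6 was level there and SCD was higher (0.19).

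FASN lay furthest below mock in α2/CI, reading 11.18 in α2/CI, 11.43 in α2/TC and 11.69 in mock cells, differences of -0.51 and -0.27. DHCR7 lay furthest below it in α2/TC, at -0.48, and differed by -0.38 in α2/CI. MVD differed by -0.49 in α2/CI and -0.34 in α2/TC, and SREBF2 (-0.38) and SCAP (-0.34) by the same amount on both. The weaker probe sets of SREBF2 gave -0.29 on both α2 arrays and, for the weakest, -0.18 in α2/CI and -0.79 in α2/TC, so that this probe set was 0.61 higher in α2/CI than in α2/TC.

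HSD17B7 was the exception, at 0.57 in α2/CI (1.489-fold) and 0.54 in α2/TC, read by 1 probe set of the kind that can match several transcripts. EBP and SCD were the other members at least 1.1-fold higher in α2/CI, at 0.18 and 0.19, and both were lower than mock in α2/TC, at -0.02 and -0.17. In α2/CI another probe set of each went the other way, at -0.36 for EBP and -0.11 for SCD. With the mean of all probe sets, the 3 higher members in α2/CI became 1. Of the 18 members with several probe sets, 9 had at least 2 that differed from mock in α2/TC and 12 in α2/CI. The differing probe sets went the same way for 8 of the 9 (not EBP) and for 6 of the 12. Probe sets identical to mock were left out, among them in α2/TC the second ones of NSDHL, ELOVL6 and FASN, whose chosen ones were lower.

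Between the α2 populations, no member was 1.5-fold apart by its chosen probe set (0.514% of 12647 genes were, and 0.19% at 2-fold). These populations differed in substrate, and the study reports more α2 protein in α2/CI than in α2/TC cells. Substrate and α2 level therefore cannot be told apart here. At 1.1-fold, 7 members were higher in α2/CI than in α2/TC (24.1%), against 9.08% of genes, and 2 were lower (6.9%), against 6.78%. The 7 were SCD (0.36), INSIG1 (0.25), EBP (0.20), SQLE (0.15), MSMO1 (0.15), ELOVL6 (0.15) and SREBF1 (0.14), and the 2 were FASN (-0.25) and MVD (-0.15). All 4 SCD probe sets were higher in α2/CI (0.20 to 0.36), as were all 3 of INSIG1 (0.16 to 0.25), whereas the EBP probe sets differed in sign. The other SQLE probe sets and the second of ELOVL6 read the same in both populations. Of 9 members with at least 2 differing probe sets, 5 went 1 way and 4 did not (LSS, EBP, SREBF2 and ACLY). Of genes with a level over 5, 11.1% were at least 1.1-fold higher. With the mean of all probe sets 4 members were higher.

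**Figure D4:**
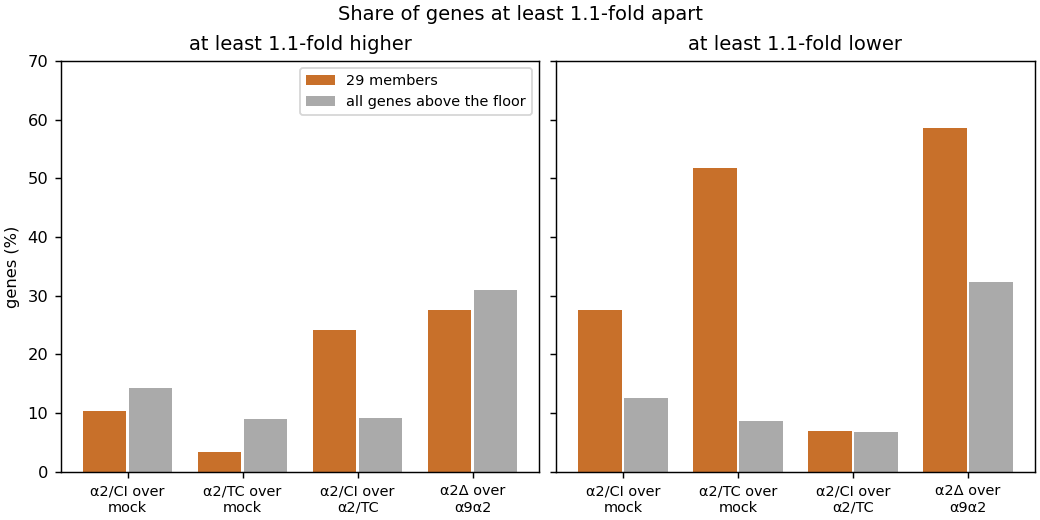
Share of genes (y axis, %) at least 1.1-fold higher (left) and lower (right) in each of the 4 comparisons within a normalization set (x axis), for the 29 members (orange) and for all genes above background (grey). The members exceed all genes on the lower side in α2/CI over mock (27.6% against 12.5%), α2/TC over mock (51.7% against 8.6%) and α2Δ over α9α2 (58.6% against 32.4%), and on the higher side in α2/CI over α2/TC (24.1% against 9.08%).

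For differences from mock across the sets, α2Δ and α9α2 values were taken after subtracting the median difference of all genes (0.50 and 0.49), as these arrays were normalized apart. More members passed 2-fold here than between α2Δ and α9α2, as did a larger share of all genes. In α2Δ, 4 members were at least 2-fold higher than in mock (13.8%), against 17.2% of genes, and 6 were lower (20.7%), against 14.3%. In α9α2, 5 were higher (17.2%), against 20.3%, and 5 were lower (17.2%), against 18.3%. Without centring, α2Δ had 7 higher and 4 lower, and the median of the members was 0.15 in place of -0.35. Both comparisons share the mock array.

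INSIG2 was higher by 1.56 in α2Δ and 2.33 in α9α2, AACS by 1.40 and 1.82, and INSIG1 by 1.06 and 1.70, though 1 of 3 INSIG1 probe sets lay at -0.25 and -0.20. FDPS passed 2-fold in α2Δ (1.73, with 0.73 in α9α2), and SCD (1.75) and MSMO1 (1.24) passed it in α9α2. SCD was read apart by its probe sets, from -1.94 to 0.81 in α2Δ and from -1.09 to 1.75 in α9α2.

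FASN was lower by both of its probe sets, at -2.27 and -1.68 in α2Δ and at -2.09 and -1.66 in α9α2. ELOVL6 was at -2.69 in α2Δ and 0.02 in α9α2, with its second probe set at -1.22 and 1.81. DHCR7 was at -1.05 in α2Δ and -0.19 in α9α2, with its second probe set at -0.10 and 0.58, and PMVK at -0.63 in α2Δ and -1.57 in α9α2. MVK (-2.20 and -2.18), LSS (-1.38 and -1.36) and EBP (-1.59 and -2.66) were also lower by the chosen probe set, but other probe sets of MVK (1.67 and 1.65) and LSS (2.36 and 2.16) and, in α2Δ, of EBP (0.63) were higher. Only 7 of 17 members with several probe sets went 1 way by all of them in α2Δ, and 6 of 17 in α9α2.

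The members left are accounted for as follows. STARD4, a sterol carrier, lay at the array minimum on all 5 arrays. CYP51A1, the lanosterol demethylase, and FADS1, a desaturase of polyunsaturated fatty acids, had only probe sets that the annotation shares with LRRD1 and MIR1908 and are not counted. The 2 shared with CYP51A1 read 10.48 and 11.79 in α2Δ, against 10.76 and 12.36 in α9α2 (-0.28 and -0.57). The 3 shared with FADS1 were also lower in α2Δ (-0.63 to -0.09). FDFT1, the squalene synthase, was not analysed here.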

How the data were processed

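The authors deposited 1 normalized log2 value per probe set and array (log base inferred from the range of 2.21 to 16.28), and GCRMA and MAS5 are named in the submitters' notes with neither their roles nor versions. Each of the 5 arrays, 1 per population, held 54675 probe sets, of which 62 controls were left out. The platform annotation gave 1 symbol for 41091, several for 1801 and none for 11721, and 41037 symbols were updated by gene identifier through RefSeq (GRCh38.p14). Only probe sets with 1 symbol were used. Which arrays were normalized together was taken from their shared minimum.

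Log2 differences of 6 pairs of arrays were computed in Python 3.11.15 with NumPy 2.4.6 and pandas 2.3.3 after raising values below the background level to it, and checked on simulated data. Differences across normalization sets were centred on the median difference of genes above background on both arrays (12013 for MP2-α2Δ and 12011 for MP2-α9α2 over MP2-mock). Precision is limited by the number of arrays, and no p-value was computed.

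The member genes, neighbouring gene lists, markers and comparisons were chosen with earlier results of these data known. Values on every array are given for members at least 1.5-fold apart within a set, and neighbouring genes are named at 2-fold. Other members are given by count, range or difference. Alternatives were a different background level or none, quantile normalization or centring, the mean of all probe sets, leaving out probe sets ending in _x_at or _s_at, which can match several transcripts, and thresholds of 1.5-fold or 3-fold. The 1.1-fold size, and the genes with a level over 5 as background, were added after the data were seen. So was the joint count of SREBP control and fatty acid synthesis genes.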

Additional observations from a re-analysis of the deposited data

How the results depend on the processing

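No member was 2-fold apart in the 3 comparisons among MP2-α2/CI, MP2-α2/TC and MP2-mock under any setting that kept 2-fold, and none of the 13 members that passed 1.5-fold in MP2-α2Δ over MP2-α9α2 changed sign there. Some balances of higher and lower members did turn. For MP2-α2Δ over MP2-α9α2, the 2 members at least 2-fold higher were 1 with centred arrays or with the mean of all probe sets, 5 at 1.5-fold and 0 at 3-fold. The 1 member at least 2-fold lower became 2 with quantile normalization or the mean of all probe sets and 8 at 1.5-fold, so that averaging probe sets turned 2 higher and 1 lower into 1 and 2. The median of -0.29 was -0.13 with the mean of all probe sets and -0.40 without probe sets ending in _x_at or _s_at, where fewer members remained. Averaging all probe sets brought INSIG1 (-0.48), SREBF1 (-0.48), SREBF2 (-0.28) and NSDHL (0.45) under 1.5-fold. For MP2-α2Δ over MP2-mock, 4 members higher and 6 lower became 7 and 4 with no centring, where the median turned to 0.15, against -0.35, and 4 and 3 with the mean of all probe sets. For MP2-α9α2 over MP2-mock, 5 higher and 5 lower became 8 and 4 with no centring, and the median of 0.02 was -0.28 after quantile normalization. The cause of these shifts was not tested, other than the thresholds and the number of members measured. No paired analysis was possible because each population has 1 array. Signal over background and the single array per population limit all values.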
